A study of Mus musculus with 15 samples.

Results

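Exosomes released by TUBO cells were set against the cells that released them, miRNA by miRNA. The comparison rests on 6 small RNA libraries of the 15 in the series: 3 of exosomes and 3 of cells. TUBO is a mouse mammary tumour line, derived from primary tumours of the Balb-NeuT strain, in which a Neu (rat Her2) transgene drives mammary cancer. The exosomes were taken from the supernatant of TUBO cultures, and the cells are the untreated TUBO line itself. A further 3 libraries of the supernatant left after exosome isolation entered the statistical fit and are given below as a side value, as are MM3MG cells, a normal BALB/c mammary epithelial line, and MM3MG-Her2 cells, the same line transduced with a Neu retrovirus. All cultures were in DMEM with 10% FCS, and no treatment was given. The isolation method for the exosomes was not stated in the labels, and all TUBO material comes from 1 line. Inserts of 18 to 26 bases were assigned to 943 mature miRNAs, hairpin loops and flanks, of which 720 had reads in exosomes or cells.

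Exosomes are small vesicles that cells shed when multivesicular endosomes fuse with the plasma membrane. They carry proteins, lipids and RNA, among it mature miRNAs, the short RNAs that guide Argonaute proteins to complementary sites in messenger RNAs. A miRNA is cut from 1 arm of a hairpin precursor, and its bases 2 to 8, the seed, carry most of the pairing to targets. Which miRNAs leave a cell in vesicles has been linked to short sequence motifs, to added bases at the 3′ end and to the level of a miRNA relative to its targets, and vesicles prepared from serum-containing medium can hold miRNAs of the serum as well. The study looked for miRNAs that act on the progesterone receptor, both in lines with Her2 and in secreted particles.

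The sequences below are those on which the comparison turns, from RefSeq on GRCm38.p6, 5′ to 3′, with the seed in capitals. The first set holds miRNAs that rose most in exosomes, from blood cells and from an imprinted cluster, followed by miR-10b-5p and miR-101a-3p.
miR-451a: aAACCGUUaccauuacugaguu
miR-144-5p: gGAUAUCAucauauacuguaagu
miR-142a-5p: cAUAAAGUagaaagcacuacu
miR-127-3p: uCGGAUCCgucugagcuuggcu
miR-409-3p: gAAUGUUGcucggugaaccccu
miR-10b-5p: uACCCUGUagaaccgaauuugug
miR-101a-3p: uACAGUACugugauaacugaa
The second set holds miRNAs that share a seed, yet shifted apart between exosomes and cells. miR-221-3p and miR-222-3p matched at 11 of 23 positions, miR-25-3p and miR-92a-3p at 18 of 21, miR-93-5p and miR-106b-5p at 16 of 21, and let-7c-5p and let-7i-5p at 18 of 22.
miR-221-3p: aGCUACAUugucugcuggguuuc
miR-222-3p: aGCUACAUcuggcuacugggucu
miR-25-3p: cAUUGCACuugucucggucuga
miR-92a-3p: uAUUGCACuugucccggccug
miR-93-5p: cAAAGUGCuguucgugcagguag
miR-106b-5p: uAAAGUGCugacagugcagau
let-7c-5p: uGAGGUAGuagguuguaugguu
let-7i-5p: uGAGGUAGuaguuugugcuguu
The third set holds both arms of the miR-30a hairpin, whose ratio differed between exosomes and cells, and miR-9-5p, an abundant miRNA that did not pass the test.
miR-30a-5p: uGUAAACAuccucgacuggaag
miR-30a-3p: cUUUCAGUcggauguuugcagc
miR-9-5p: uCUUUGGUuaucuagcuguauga
The last set holds miRNAs that were lower in exosomes, the 3 miR-29 members with their common seed, miR-31-5p and miR-24-3p.
miR-29a-3p: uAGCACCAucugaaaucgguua
miR-29b-3p: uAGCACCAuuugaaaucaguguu
miR-29c-3p: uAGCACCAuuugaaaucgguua
miR-31-5p: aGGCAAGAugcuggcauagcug
miR-24-3p: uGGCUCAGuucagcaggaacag

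The exosome libraries held 428335 to 583658 reads and the cell libraries 525422 to 710902. miRNAs took 60.6%, 57.3% and 59.2% of reads in exosomes, against 76.5%, 76.2% and 75.5% in cells, and inserts of 20 bases or fewer made up 18.3%, 15.3% and 14.2% in exosomes, against 9.97%, 10.4% and 9.82% in cells. Exosome replicate 3 stood apart: the chi-square of its counts against the other exosome libraries was 85.7 and 83.8 times its degrees of freedom, against 14.7 between exosome replicates 1 and 2 and 5.22 to 6.93 between cell libraries. The epithelial miR-200 family took 2.18%, 2.08% and 1.97% of miRNA reads in exosomes and 2.6%, 2.48% and 2.61% in cells, and miR-205-5p was at 84.8, 73.3 and 94.9 CPM in exosomes and 62, 90 and 74.5 CPM in cells, where CPM is the count of a miRNA per 1000000 miRNA reads of its library. Of the stromal markers, miR-143-3p was at 43258, 40707 and 42277 CPM in exosomes and 46937, 46868 and 47027 CPM in cells, while miR-214-3p was at 2.83, 0 and 3.39 CPM in exosomes and had 0 reads in cells. The other stromal members did not move together, with miR-199a-3p/miR-199b-3p higher and miR-145a-5p and miR-125b-5p lower in exosomes. The labels do not say whether replicates were separate cultures, so p-values measure the spread between these libraries, which may be technical. CPM is a share of a library, so a lower level cannot be told apart from a higher level of other miRNAs, and fewer vesicles cannot be told apart from less RNA in each.

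Most of the abundant miRNAs of the cells were also among the most abundant of exosomes, though not all at similar shares. The 10 most abundant miRNAs made up 57.2%, 56.7% and 54.9% of miRNA reads in exosomes and 58.1%, 58% and 58.2% in cells, and 9 of the 10 were the same. Among 246 miRNAs tested, mean levels on the log2(CPM + 1) scale had a Pearson r of 0.825 and a Spearman rho of 0.837 across miRNAs, which are not independent replicates and share their libraries. miR-21a-5p, an oncogenic miRNA raised in many tumours, was at 84493, 87982 and 54628 CPM in exosomes and 79157, 77492 and 76588 CPM in cells (log2 change −0.15 ± 0.22, SE, adjusted p = 0.597). miR-182-5p, of a sensory and oncogenic cluster, averaged 65697 ± 22078 CPM in exosomes and 57877 ± 6838 CPM in cells (SD, n = 3 each; log2 change 0.09, edgeR adjusted p = 0.857). For both, the exosome libraries spread on either side of the cell libraries, and exosome replicate 3 lay farthest out.

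In edgeR's quasi-likelihood test with Benjamini-Hochberg adjustment, 46 of the 246 miRNAs were higher in exosomes (18.7% of those tested) and 74 were lower (30.1%), at an adjusted p under 0.05. How those calls split depended on the scaling between libraries. The median log2 change of all tested miRNAs was −0.28 with TMM factors over all 9 TUBO-derived libraries, and 0.10 with TMM factors from the 6 exosome and cell libraries alone, where 74 were higher and 47 lower. It was 0.08 with upper-quartile scaling (62 higher, 36 lower), −0.19 with RLE scaling (49 and 66) and −0.18 with no scaling beyond the total (50 and 62). A change within about 0.38 of 0 on the log2 scale therefore had no settled direction. Without exosome replicate 2 or cell replicate 3, 79 and 77 miRNAs were called. Calls made in the same direction in all 16 settings tried, and ratios of miRNAs within a library, which no scaling can move, are therefore given throughout. In all 16 settings 28 miRNAs were higher in exosomes (11.4%) and 20 were lower (8.13%). Exosome and cell libraries were fully separate for 159 of 246 (64.6%).

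**Figure D1:**
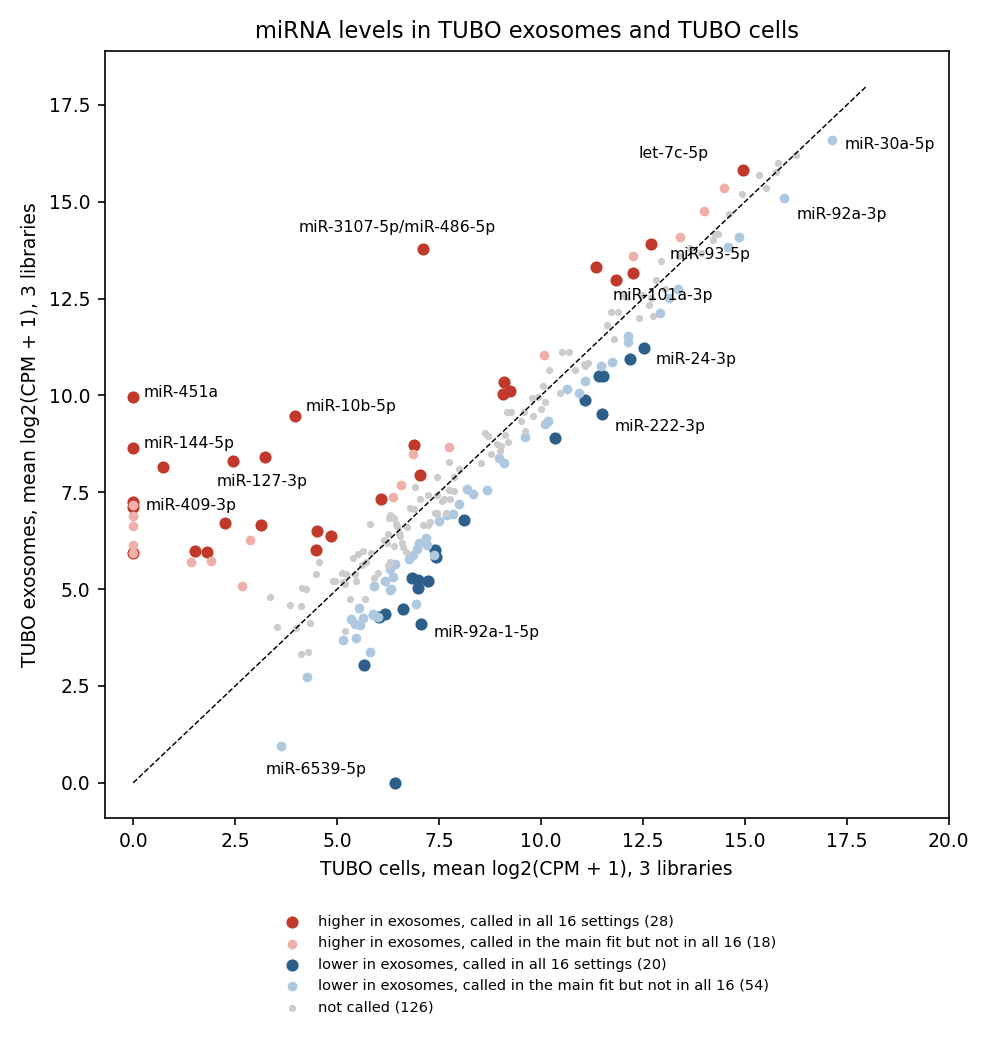
Mean level of each of the 246 tested miRNAs in TUBO exosomes (vertical) and TUBO cells (horizontal), on the log2(CPM + 1) scale over 3 libraries each; the dashed line marks equal levels. The 28 miRNAs higher in all 16 settings include a column at 0 in cells, such as miR-451a and miR-144-5p, and the 20 lower ones lie below the line.

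miRNAs of blood and vessel cells were the largest rises. miR-451a, the erythroid miRNA that is matured by Argonaute 2 without Dicer, was at 946, 1152 and 874 CPM in exosomes and had 0 reads in all 3 cell libraries, which makes it at least 469-fold higher against a floor of 3 reads over the cell group (adjusted p = 3.2e-10). Its cluster mate miR-144-5p on chromosome 11 (hairpins of both between 78073005 and 78073241, GRCm38), was at 389.9, 395 and 417 CPM in exosomes against 0 reads in cells, at least 192-fold higher (adjusted p = 2.2e-08). miR-144-3p was at least 33.7-fold higher (adjusted p = 1.1e-05). Every exosome library held these 3 arms and no cell library did.

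The endothelial miR-126a gave the same picture on both arms. miR-126a-5p was at 107, 151 and 197 CPM in exosomes and had 0 reads in cells, at least 71.2-fold higher (edgeR adjusted p = 9.1e-07), and miR-126a-3p was at least 45.5-fold higher (adjusted p = 3.3e-06). The haematopoietic miR-142a-5p was at 215, 265 and 376 CPM in exosomes, against 1 read in the 3 cell libraries together, 405 times as many per miRNA read (95% counting interval 72 to 16057). Too low to be tested, miR-142a-3p, the myeloid miR-223-3p and the lymphoid miR-150-5p had 26, 25 and 23 reads over the exosome libraries and 0 over the cell libraries, at least 13.9-fold, 13.4-fold and 12.3-fold higher. The muscle and erythroid miR-486, whose 2 hairpins on opposite strands also give miR-3107-5p, was the most abundant of the set at 9038, 9886 and 23347 CPM in exosomes, against 148, 120 and 147 CPM in cells (log2 change 6.58 ± 0.67, SE, adjusted p = 3.7e-05). Exosome replicate 3 held more than the other exosome libraries, yet each of them lay far above every cell library.

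Of the list of blood and serum miRNAs, 11 features had reads and 8 were tested. Of those, 7 were higher and 1 lower, beside 18.7% higher and 30.1% lower among all tested, and 4 of them were higher in all 16 settings. Of the 7, miR-451a, miR-144-3p, miR-126a-5p and miR-126a-3p had 0 reads in cells and miR-142a-5p had 1. These passed the filter on read counts without the cell libraries, so their direction was fixed in advance. miR-122-5p, with 8 reads over the cell libraries, passed it without them as well, which favoured a rise. The count and the median of the list therefore do not measure enrichment. The list's median log2 change was 7.46, or 5.83 with members at 0 in cells set to their bound, against −0.28 for all tested. The one that fell was miR-16-5p, which many tissues express, at 2455, 2325 and 3162 CPM in exosomes and 4711, 4454 and 4203 CPM in cells (−0.85 ± 0.24, adjusted p = 0.00802). That call was lost without exosome replicate 1 (−0.54), exosome replicate 2 (−0.44), cell replicate 1 (−0.50) and cell replicate 3 (−0.64). miR-122-5p, the hepatocyte miRNA, was at 31.1, 36.6 and 30.5 CPM in exosomes and 7.99, 2.5 and 5.59 CPM in cells (log2 change 2.36 ± 0.57, adjusted p = 0.0026). The summed share of the list was 1.3%, 1.41% and 2.82% of miRNA reads in exosomes and 0.487%, 0.458% and 0.436% in cells, without overlap (exact two-sided permutation p = 0.1, the smallest that 3 against 3 libraries allow, and 0.133 after adjustment over 20 shares).

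The medium held fetal calf serum, whose part in these reads was not tested. In the supernatant left after exosome isolation, miR-451a was at 26.5, 0 and 0 CPM, miR-144-5p and miR-126a-5p had 0 reads in all 3 libraries, and miR-486 was at 3161, 2918 and 7059.8 CPM. MM3MG and MM3MG-Her2 cells, grown in the same medium, had 0 reads of miR-451a and miR-144-5p, and 1081 and 699 CPM of miR-486 on average. miR-126a-5p averaged 14.7 CPM in MM3MG and 14.7 CPM in MM3MG-Her2 cells, and miR-126a-3p 20.9 and 27.3 CPM. So miR-451a reads were in every exosome library and in supernatant replicate 1, while miR-486 was found in every group.

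miRNAs of the imprinted Dlk1-Dio3 region on chromosome 12, a large group of miRNAs active on the maternal copy, were the other set that cells nearly lacked. miR-127-3p, which is encoded antisense to Rtl1, was at 218, 147 and 589.8 CPM in exosomes and 4, 7.5 and 1.86 CPM in cells (log2 change 6.03 ± 0.69, SE, adjusted p = 1.1e-05). miR-379-5p was at 87.6, 89.6 and 132 CPM in exosomes and 2, 7.5 and 1.86 CPM in cells (4.62 ± 0.54, adjusted p = 2.4e-06). miR-409-3p was at 84.8, 130.3 and 197 CPM in exosomes and had 0 reads in cells, at least 64.3-fold higher (adjusted p = 2.4e-06). All exosome libraries stood above all cell libraries for each. With 6, 5 and 0 reads over the cell libraries, miR-127-3p, miR-379-5p and miR-409-3p passed the filter on read counts without those libraries, which favoured a rise.

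The 5 tested members of the cluster between 109709060 and 109743795 on chromosome 12 (GRCm38) were all higher in exosomes, beside 18.7% of all tested. Their log2 changes were 4.52 to 8.20, and 4 of them were higher in all 16 settings. Each had 5 or fewer reads over the cell libraries, so none passed the filter on read counts through cells. Their direction was thus largely set by that filter, and the count of rises is no separate support. miR-381-3p had 56 reads in exosomes and 3 in cells, a CPM ratio of 30 (95% counting interval 9.75 to 149.8), miR-411-5p had 45 and 2, a ratio of 36.2 (9.44 to 308), and miR-382-5p had 53 and 0, at least 28.4-fold higher. Without cell replicate 2, which held all 3 of the cells' miR-381-3p reads, the log2 change of miR-381-3p was 7.03 in place of 4.52. Of the 17 features with 20 or more reads in exosomes and none in cells, 6 lay on chromosome 12 and 7 were in the blood and serum list. The 17 were picked by the contrast between exosomes and cells itself. How many of all features with reads lie on chromosome 12 was not counted. The 6 and the 7 therefore describe the 17 and do not measure enrichment. In MM3MG cells miR-127-3p averaged 6562 CPM, miR-379-5p 2586 CPM and miR-409-3p 302 CPM. In MM3MG-Her2 cells they averaged 81.9, 32.4 and 25.5 CPM. For these 3 the levels in exosomes lay above those of TUBO cells and below those of MM3MG cells. miR-493-5p, on the same chromosome, did not follow that order, with 25.4, 61.1 and 91.5 CPM in exosomes, 0 reads in TUBO cells and 2.97 CPM on average in MM3MG cells.

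miR-10b-5p, which is encoded among the Hoxd genes and known from breast cancer metastasis, was at 429, 549.7 and 1159 CPM in exosomes and 6, 32.5 and 5.59 CPM in cells (log2 change 5.59 ± 0.57, adjusted p = 4.0e-06). It had 19 reads over the cell libraries and passed the filter on read counts without them. Its seed mate miR-10a-5p, from the Hoxb cluster, was at 133, 155 and 207 CPM in exosomes and 58, 125 and 61.4 CPM in cells (0.94 ± 0.33, adjusted p = 0.0275), a call lost without cell replicate 1 (1.04) or cell replicate 3 (1.01), and 1.41 without cell replicate 2. miR-199a-3p/miR-199b-3p, a fibroblast miRNA, was at 322, 415 and 532 CPM in exosomes and 44, 242 and 65.2 CPM in cells (1.79 ± 0.48, adjusted p = 0.0075), and 2.89 without cell replicate 2. MM3MG cells averaged 9400.2 CPM of miR-10b-5p and 74759.8 CPM of miR-199a-3p/miR-199b-3p. In TUBO cells, replicate 2 was the highest library for miR-127-3p, miR-379-5p, miR-10b-5p and miR-199a-3p/miR-199b-3p. For miR-127-3p and miR-379-5p that order rests on only 6 and 5 reads over the cell libraries.

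**Figure D2:**
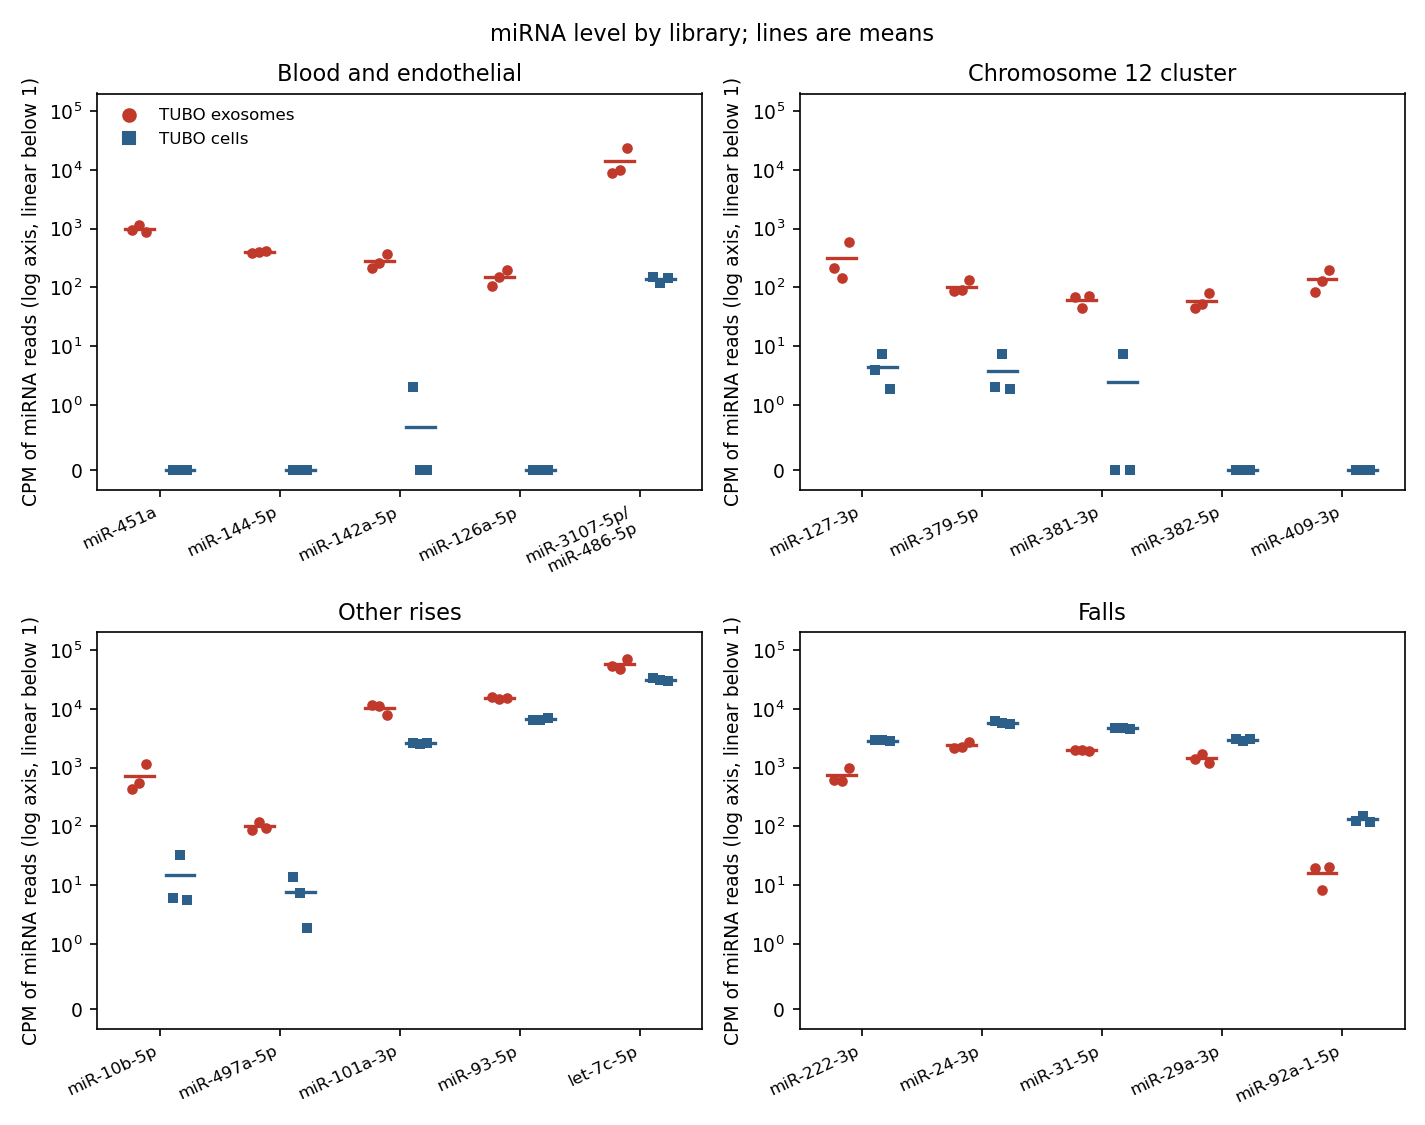
Level of 20 miRNAs in each library of TUBO exosomes (circles, left in each pair) and TUBO cells (squares, right), in CPM of miRNA reads on a log axis that is linear below 1; short lines are means of 3 libraries. miR-451a, miR-144-5p, miR-126a-5p, miR-382-5p and miR-409-3p are at 0 in every cell library, whereas the 5 falls have reads in every library of both groups.

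Some rises were in miRNAs that the cells themselves expressed at a high level. Of these, miR-101a-3p and miR-140-3p were outside the rule for named miRNAs. miR-101a-3p, a miRNA that targets the Polycomb enzyme Ezh2, was at 11829, 11152 and 7725 CPM in exosomes and 2672, 2539 and 2640.3 CPM in cells (log2 change 1.85 ± 0.24, adjusted p = 6.7e-06). miR-93-5p, of the growth-promoting miR-106b-25 cluster in Mcm7, was at 15906, 14812 and 15449 CPM in exosomes and 6504, 6441 and 6979 CPM in cells (1.11 ± 0.20, adjusted p = 2.4e-04). miR-140-3p, best known from cartilage, averaged 9143 ± 481 CPM in exosomes and 4856 ± 197 CPM in cells (SD, n = 3 each; log2 change 0.81, edgeR adjusted p = 0.00216). These 3 were higher in all 16 settings, and their libraries did not overlap.

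miR-210-3p, the miRNA induced by hypoxia, was at 15751, 15264 and 6277 CPM in exosomes and 4525, 5148 and 4893 CPM in cells (log2 change 1.23 ± 0.38, adjusted p = 0.0172). It rested on the libraries kept: without exosome replicate 3 the change was 1.93, and the call was lost without exosome replicate 1 (1.32), exosome replicate 2 (1.43), cell replicate 1 (1.54) or cell replicate 3 (1.55). Of the list of miRNAs described in extracellular vesicles, 10 were tested, 5 were higher and 1 was lower, beside 18.7% higher and 30.1% lower among all tested, with a median log2 change of 1.03 against −0.28. Of the 5 rises, miR-451a, miR-486 and miR-122-5p are in the blood and serum list as well, and miR-10b-5p and miR-210-3p are not. With 0, 8 and 19 reads over the cell libraries, miR-451a, miR-122-5p and miR-10b-5p passed the filter on read counts without those libraries. That favoured a rise, so the count and the median of this list do not measure enrichment. The fall was miR-423-5p, at 308, 480.4 and 675 CPM in exosomes and 755, 719.8 and 881 CPM in cells (−0.79 ± 0.26, adjusted p = 0.0179), a call lost without exosome replicate 1 (−0.29), exosome replicate 2 (−0.46), cell replicate 1 (−0.52) or cell replicate 3 (−0.46). miR-21a-5p and miR-146a-5p did not pass the test (adjusted p = 0.597 and 0.229), nor did miR-320-3p (1279.8, 1372 and 2193 CPM in exosomes, 1223, 1077 and 1244 CPM in cells, adjusted p = 0.22) and miR-155-5p (42.4, 32.6 and 47.5 CPM in exosomes, 42, 55 and 29.8 CPM in cells, adjusted p = 0.859).

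Some features among the largest rises are of doubtful origin. miR-3470b-3p, miR-3470a-3p and miR-1954-3p/miR-5098-3p averaged 143, 118 and 338 CPM in exosomes and 0, 0 and 8.34 CPM in cells. Their most abundant reads also occur in 311, 169 and 511 other annotated genes, so these reads cannot be tied to the hairpins. For miR-451a, miR-144-5p, miR-127-3p, miR-10b-5p and miR-101a-3p the most abundant read occurs in no other annotated gene.

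The falls named here were smaller in fold than the largest rises. miR-222-3p, an oncogenic miRNA that targets the cell cycle inhibitor p27, was at 610.3, 594 and 1003 CPM in exosomes and 2946, 2929 and 2793 CPM in cells (log2 change −2.06 ± 0.30, SE, adjusted p = 3.0e-05). miR-24-3p was at 2198, 2272 and 2735 CPM in exosomes and 6132, 5786 and 5636 CPM in cells (−1.38 ± 0.21, adjusted p = 3.6e-05). miR-31-5p, known for holding back breast cancer metastasis, was at 1966, 1967 and 1946 CPM in exosomes and 4733, 4706 and 4614 CPM in cells (−1.36 ± 0.21, adjusted p = 4.4e-05). The exosome libraries lay below every cell library for all 3, and all 3 calls were made in all 16 settings.

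The miR-29 family, which represses collagen and other matrix genes, fell as a whole. miR-29a-3p was at 1407, 1739 and 1189.7 CPM in exosomes and 3032, 2794 and 3015 CPM in cells (log2 change −1.14 ± 0.22, adjusted p = 4.1e-04), and −0.65 without exosome replicate 3. miR-29b-3p was at 33.9, 44.8 and 16.9 CPM in exosomes and 104, 130 and 139.7 CPM in cells (−2.08 ± 0.36, adjusted p = 1.4e-04), and miR-29c-3p was at 48, 40.7 and 20.3 CPM in exosomes and 146, 100 and 128 CPM in cells (−1.87 ± 0.37, adjusted p = 4.7e-04), with −1.23 without exosome replicate 3. The 3 were lower in all 16 settings. miR-29b-3p passed the filter on read counts only with the cell libraries, which favoured a fall.

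Of the 15 tested miRNAs in the list of p53-linked, oncogenic and suppressor miRNAs, 0 were higher and 8 were lower, 5 of them in all 16 settings, with a median log2 change of −0.85 against −0.28 for all tested. The 5 were the miR-29 members, miR-222-3p and miR-31-5p. The p53 target miR-34a-5p was at 169.5, 155 and 37.3 CPM in exosomes and 192, 165 and 164 CPM in cells, which did not pass the test (adjusted p = 0.183). In this list 0 rises stood beside 18.7% among all tested, and 8 of 15 falls beside 30.1%. The calls of miR-15a-5p, miR-16-5p and miR-34b-5p were each lost in several of the fits that left out 1 library. miR-29b-3p and miR-34b-5p passed the filter on read counts only with the cell libraries, which favoured a fall. The list was also chosen with earlier results of these data known, so its counts do not measure enrichment.

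Several other falls were less abundant arms of their hairpins. miR-92a-1-5p was at 19.8, 8.14 and 20.3 CPM in exosomes and 126, 152 and 121 CPM in cells (log2 change −3.06 ± 0.39, adjusted p = 6.6e-06), the largest fall at 100 CPM or more. miR-16-1-3p was at 50.9, 40.7 and 16.9 CPM in exosomes and 106, 167 and 177 CPM in cells (−2.13 ± 0.38, adjusted p = 2.8e-04). Both passed the filter on read counts only with the cell libraries, which favoured a fall. miR-27a-5p (−1.66), miR-27b-5p (−1.49) and miR-148a-5p (−1.43) were lower in all 16 settings as well, with miR-148a-5p at −0.95 without exosome replicate 2. miR-99a-3p, the more abundant arm of Mir99a over pooled exosome and cell reads, fell by 1.69 on the log2 scale and was lower in all 16 settings. The 5p arm of Mir99a was 1.52, 2.38 and 1.46 times the 3p arm in exosomes and 0.686, 0.724 and 1.04 times in cells. miR-7a-5p was at 542, 509 and 379.6 CPM in exosomes and 1353, 1305 and 1268 CPM in cells (−1.56 ± 0.25, adjusted p = 7.8e-05). miR-145a-5p was at 22.6, 85.5 and 64.4 CPM in exosomes and 196, 157 and 145 CPM in cells (−1.68 ± 0.39, adjusted p = 0.00183), a call lost without exosome replicate 1 (−0.99). Also outside the rule for named miRNAs, and chosen after its values were seen, miR-6539-5p had 0 reads in exosomes and 62, 100 and 91.2 CPM in cells, at least 24.9-fold lower. It too passed the filter only through the cell libraries.

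**Figure D3:**
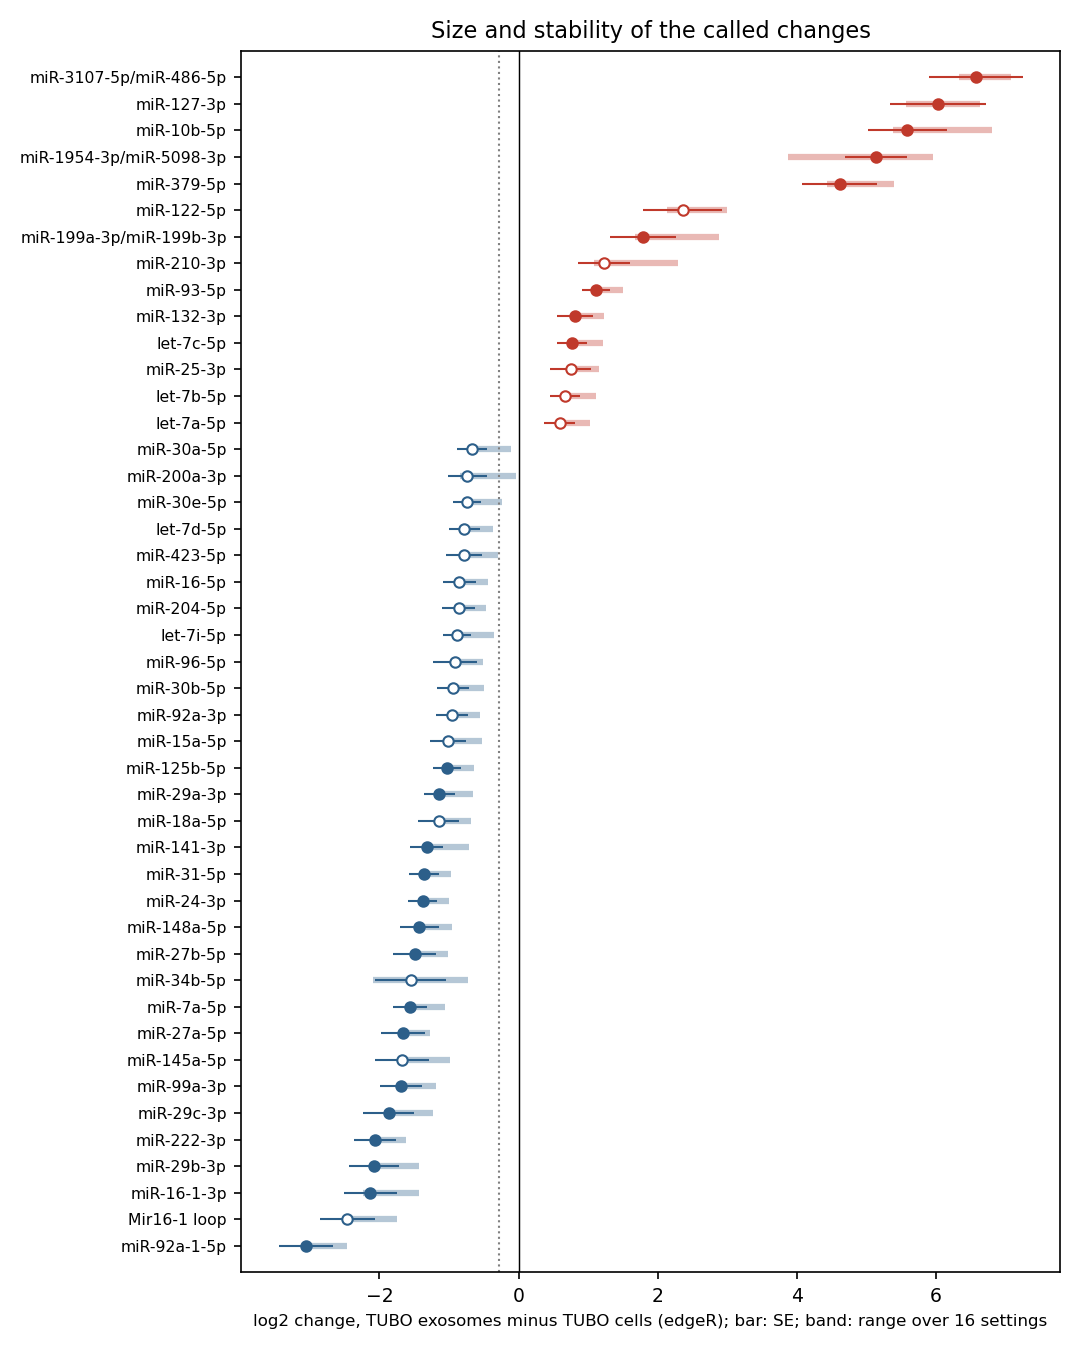
log2 change of the called miRNAs named by the rule or held in the lists, TUBO exosomes minus TUBO cells, with more than 3 reads in cells. Points are edgeR estimates with their SE, pale bands are the range over 16 settings, filled points were called in all 16, and the dotted line is the median of all tested miRNAs at −0.28. The bands of the 5 largest rises lie at 3.88 or higher, while small falls such as miR-200a-3p and miR-30a-5p reach almost to 0.

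Hairpin arms shifted against each other. In 62 hairpins both arms were tested, and in 40 the less abundant arm, by reads pooled over exosomes and cells, had the lower log2 change. Of 63 less abundant arms tested, 5 were higher and 24 lower (7.94% and 38.1%). Of 165 more abundant arms, 34 were higher and 48 lower (20.6% and 29.1%). Some less abundant arms, such as miR-92a-1-5p and miR-16-1-3p, passed the filter on read counts only with the cell libraries, which favoured a fall. Others, such as miR-144-3p, passed it without them. These counts therefore do not measure a trait of less abundant arms. In Mir30a and Mir30e the less abundant 3p arm had the higher log2 change. In Mir30b, Mir30c-2 and Mir30d it had the lower one (−1.17, −0.92 and −1.13, against −0.94, −0.49 and −0.29 for the 5p arm). miR-30a-3p was at 8134, 8037 and 8199 CPM in exosomes and 3919, 3669 and 3327 CPM in cells (log2 change 1.06 ± 0.20, adjusted p = 3.4e-04), whereas its partner miR-30a-5p, the most abundant miRNA of both, was at 111225, 113951 and 70935 CPM in exosomes and 143756, 150509.8 and 140766 CPM in cells. The 3p arm therefore made up 0.0731, 0.0705 and 0.116 of the 5p arm in exosomes and 0.0273, 0.0244 and 0.0236 in cells. miR-30e-3p to miR-30e-5p gave 0.21, 0.207 and 0.256 in exosomes and 0.0701, 0.0563 and 0.0523 in cells. In Mir30a and Mir30e the 3p share was higher in every exosome library.

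Less abundant arms took 1.93%, 1.9% and 2.07% of miRNA reads in exosomes and 1.81%, 1.77% and 1.8% in cells. Without miR-30a-3p, a calculation added after seeing the data, the order was the opposite, with shares of 1.11%, 1.09% and 1.25% in exosomes and 1.42%, 1.4% and 1.47% in cells. Among the other hairpins, the 5p arm of let-7b was 368, 272 and 569 times its 3p arm in exosomes and 112, 135 and 143 times in cells. The widest gap between tested arms apart from miR-3470b was in Mir350, where the 5p arm was 6, 4 and 1.58 times the 3p arm in exosomes and 0.222, 0.682 and 0.783 times in cells. Reads from hairpin loops, which Dicer cuts away, were rarer in exosomes, with 26, 16 and 25 reads against 119, 99 and 128 in cells, or 73.5, 65.1 and 84.7 CPM against 238, 247 and 238 CPM. The Mir16-1 loop gave 176 of the 346 loop reads in cells and 21 of 67 in exosomes, and Mir141 gave 113 and 28.

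miRNAs with the same seed parted as well, and these ratios do not depend on scaling. The pairs were chosen after their values were seen, so they are given with no test. miR-222-3p, which shares seed and transcript with miR-221-3p on the X chromosome (hairpins between 19146294 and 19146971, GRCm38), was 0.311, 0.277 and 0.387 times as abundant as miR-221-3p in exosomes and 1.69, 1.68 and 1.9 times in cells. miR-221-3p itself was at 1964, 2146 and 2593 CPM in exosomes and 1743, 1739 and 1469 CPM in cells (log2 change 0.34 ± 0.24, adjusted p = 0.244). The order of the pair was thus opposite in exosomes and cells, and no library crossed over. In MM3MG cells the pair averaged 5684 CPM of miR-222-3p and 5398 CPM of miR-221-3p.

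miR-25-3p and miR-92a-3p share a seed but lie in the miR-106b-25 and miR-17-92 clusters. miR-25-3p was at 38266, 36465 and 50276 CPM in exosomes and 21897, 25235 and 22385 CPM in cells (log2 change 0.75 ± 0.29, adjusted p = 0.0391, lost without cell replicate 2 at 0.87 and 1.16 without exosome replicate 2). miR-92a-3p was at 31815, 29954 and 42572 CPM in exosomes and 65076, 60399 and 65259.9 CPM in cells (−0.96 ± 0.23, adjusted p = 0.0023, lost without exosome replicate 2 at −0.55). Their ratio, 1.2, 1.22 and 1.18 in exosomes and 0.336, 0.418 and 0.343 in cells, did not overlap. miR-93-5p to miR-106b-5p, which share seed and cluster, stood at 23, 20.6 and 30.2 in exosomes and 8.07, 9.41 and 9.97 in cells. In supernatant miR-92a-3p was at 253293, 241352 and 246236 CPM.

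let-7, the family that represses Ras, Myc and Lin28, moved in both directions within 1 seed. Of 9 tested members 3 were higher and 2 lower, beside 18.7% higher and 30.1% lower among all tested, with a median log2 change of 0.17 against −0.28. let-7c-5p was at 54621, 46856 and 70894 CPM in exosomes and 32976, 31553 and 30252 CPM in cells (0.77 ± 0.22, adjusted p = 0.00802, and 1.21 without exosome replicate 2), and it was higher in all 16 settings. let-7i-5p was at 16861, 15781 and 10812 CPM in exosomes and 24039.9, 25667 and 24500.4 CPM in cells (−0.88 ± 0.20, adjusted p = 0.00188). Its call was lost without exosome replicate 2 (−0.60), exosome replicate 3 (−0.35), cell replicate 1 (−0.57) or cell replicate 3 (−0.60), and in 2 other settings. Within libraries, let-7c-5p was 3.24, 2.97 and 6.56 times let-7i-5p in exosomes and 1.37, 1.23 and 1.23 times in cells, and let-7a-5p was 13.2, 12.5 and 13.4 times let-7d-5p in exosomes and 5.27, 4.87 and 5.08 times in cells. Of 27 seed families with 2 or more tested members, 3 held calls in both directions. Some let-7 members differ at few positions, so base errors can move reads between the closest of them. let-7a-5p and let-7d-5p matched at 20 of 22 positions, and let-7c-5p and let-7i-5p at 18 of 22.

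**Figure D4:**
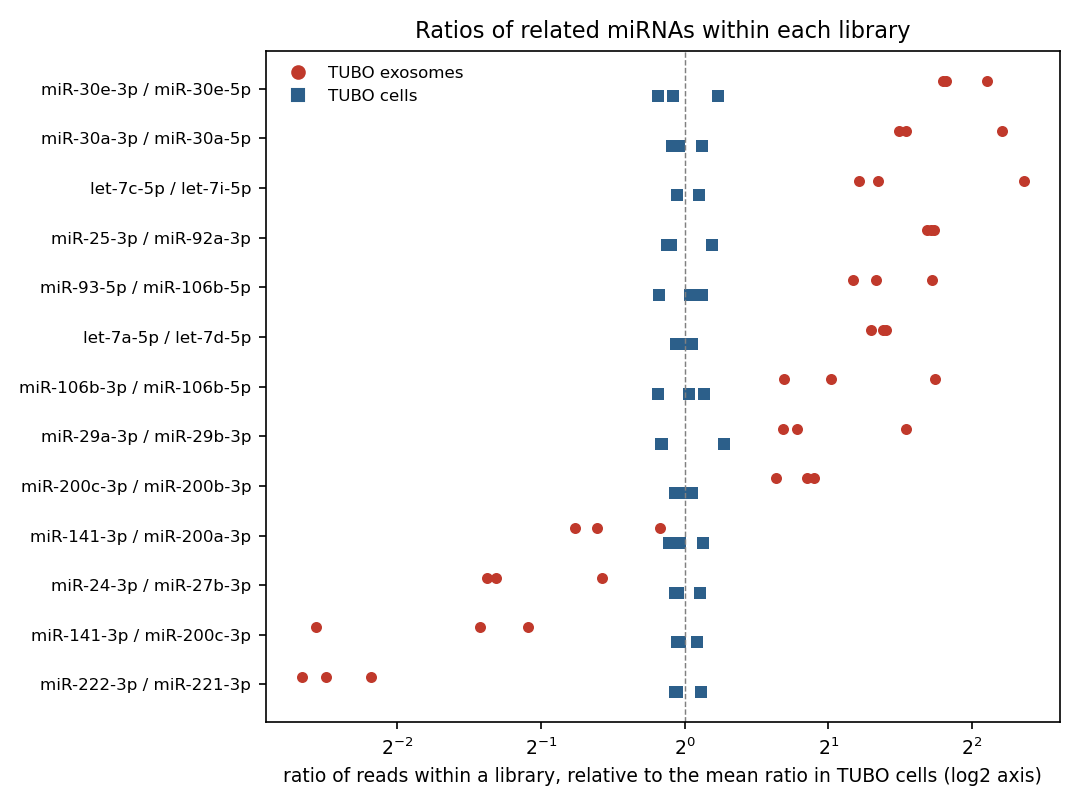
Ratio of reads of 2 related miRNAs within each library, divided by the mean ratio in TUBO cells, on a log2 axis; circles are the 3 exosome libraries and squares the 3 cell libraries. miR-222-3p relative to miR-221-3p lies lowest, at 0.185 times the mean of cells, and miR-30e-3p relative to miR-30e-5p highest, at 3.77 times.

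A list of candidate regulators of the progesterone receptor, drawn up for this comparison and not by the study, held no rise. miR-9-5p was at 56585, 62722 and 46978 CPM in exosomes and 54244, 56038 and 56384 CPM in cells (log2 change −0.11 ± 0.25, adjusted p = 0.74), and exosome libraries lay on both sides of the cell libraries. miR-181a-5p was at 58938, 59657 and 40962 CPM in exosomes and 43475, 40675 and 41579 CPM in cells (0.23 ± 0.20, adjusted p = 0.36). Of 12 candidates tested, 0 were higher and 3 were lower (miR-30a-5p, miR-30b-5p and miR-30e-5p), beside 18.7% higher and 30.1% lower among all tested, with a median of −0.40 against −0.28, and none of the 12 was called in all 16 settings.

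miR-30a-5p fell by 0.67 ± 0.22 on the log2 scale (adjusted p = 0.0179), but it was called in 5 of 16 settings and stood at −0.11 without exosome replicate 3. miR-30b-5p was at 649.8, 643 and 539 CPM in exosomes and 1077, 1059.7 and 1132 CPM in cells (−0.94 ± 0.23, adjusted p = 0.00234, and −0.50 without exosome replicate 3). miR-30e-5p fell by 0.74 ± 0.20 (adjusted p = 0.00678), and by 0.24 without exosome replicate 3. Leaving out any library other than cell replicate 2 cost miR-30b-5p and miR-30e-5p their calls, and leaving out any of the 6 cost miR-30a-5p its call. Summed over the list, candidates took 28.6%, 29.7% and 21.9% of miRNA reads in exosomes and 31.3%, 32% and 30.8% in cells (exact permutation p = 0.1, adjusted 0.133). The summed difference was −4.63 percentage points, and −2.22 without exosome replicate 3.

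Epithelial miRNAs, which hold the epithelial state by repressing Zeb1 and Zeb2, did not move as a block. miR-141-3p was at 1054, 1169 and 613 CPM in exosomes and 2254, 2079 and 2171 CPM in cells (log2 change −1.32 ± 0.24, adjusted p = 2.4e-04), with −0.71 without exosome replicate 3, and was lower in all 16 settings. miR-200c-3p, from the same transcript, was at 5636, 4959 and 7239.9 CPM in exosomes and 4589, 3899 and 4487 CPM in cells (0.36 ± 0.21, adjusted p = 0.169). Their ratio was 0.187, 0.236 and 0.0847 in exosomes and 0.491, 0.533 and 0.484 in cells. miR-200a-3p, with the seed of miR-141-3p, was at 8699, 8639.9 and 3349 CPM in exosomes and 10013, 10877 and 10798 CPM in cells. Its fall of 0.74 (adjusted p = 0.0375) was called in 2 of 16 settings and came to −0.03 without exosome replicate 3.

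Among the miR-17-92 cluster and its paralogs, 9 were tested, 2 were higher (miR-93-5p and miR-25-3p) and 2 lower (miR-92a-3p and miR-18a-5p), with a median of 0.05. These counts, and those of the short lists that follow, stand beside 18.7% higher and 30.1% lower among all tested. The call of miR-18a-5p (−1.15) was lost without exosome replicate 2 (−0.73), exosome replicate 3 (−0.69), cell replicate 1 (−0.84) or cell replicate 3 (−0.88), and that of miR-92a-3p without exosome replicate 2 (−0.55). The cluster itself, on chromosome 14, ranged from 0.48 for miR-19a-3p to −3.06 for miR-92a-1-5p. In the miR-23/27/24 list 1 of 5 was lower, miR-24-3p, and it was 0.108, 0.113 and 0.188 times miR-27b-3p in exosomes and 0.302, 0.268 and 0.271 times in cells. In the stromal list 1 of 6 was higher, miR-199a-3p/miR-199b-3p, and 2 were lower, miR-145a-5p and miR-125b-5p. miR-125b-5p was at 1480.4, 1466 and 1407 CPM in exosomes and 2574, 2772 and 2925 CPM in cells (−1.03 ± 0.20, adjusted p = 3.8e-04), and −0.65 without exosome replicate 3. In the miR-183 cluster 1 of 3 was lower, miR-96-5p (−0.91, called in 3 of 16 settings), and miR-183-5p averaged 11419 CPM in exosomes and 7819 CPM in cells (adjusted p = 0.146). In the muscle and neural list 1 of 3 was higher, miR-132-3p (0.81, 1.23 without exosome replicate 2), and miR-203-3p and miR-205-5p, the other epithelial miRNAs, did not pass the test.

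The ends of the reads differed too. Reads with untemplated U at the 3′ end, where terminal uridylyl transferases add it, made up 8.33%, 8.53% and 8.36% of miRNA reads in exosomes and 7.43%, 7.34% and 7.41% in cells. Untemplated A ran the other way, at 2.3%, 2.45% and 2.93% in exosomes and 3.05%, 2.94% and 3.07% in cells, with exosome replicate 3 next to the lowest cell library. Among miRNA reads with a reference 5′ end from a RefSeq mature sequence, those with a shifted 5′ end made up 4.23%, 4.03% and 3.52% in exosomes. In cells they made up 3.4%, 3.4% and 3.38%. No pair of groups overlapped, and each gave an exact two-sided permutation p of 0.1, the smallest possible, and 0.133 after adjustment over the 20 shares.

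Single miRNAs differed in both directions. Of 64 miRNAs with 1000 CPM or more in both, the U share was higher in exosomes without overlap for 17 and lower for 16. The A share was higher for 3 and lower for 25. The share with a shifted 5′ end was higher for 9 and lower for 13, while the pooled share was higher in exosomes. It could not be measured for miR-143-3p, miR-151-3p, miR-151-5p, miR-23b-3p, miR-30d-5p, miR-320-3p, miR-378a-3p/miR-378c and miR-532-5p. Their reads had no reference 5′ end, and they were counted among the miRNAs whose libraries overlap. miR-101a-3p carried untemplated U on 19.2%, 21% and 15% of its reads in exosomes and 39.4%, 40.1% and 41.3% in cells. A shifted 5′ end was on 10.1%, 10.7% and 5.75% of them in exosomes and 25.9%, 28.6% and 26% in cells. Its reads with the usual 5′ end were at 10632, 9959 and 7281 CPM in exosomes and 1981, 1812 and 1955 CPM in cells, a 4.85-fold gap between means, whereas the shifted reads averaged 945 ± 434 CPM in exosomes and 701 ± 22.7 CPM in cells (SD, n = 3 each), a 1.35-fold gap that is smaller than the spread of the exosome libraries. miR-210-3p carried U on 31.8%, 29.6% and 38% of reads in exosomes and 53.1%, 53.6% and 52.9% in cells. miR-30a-3p went the other way, with 38.3%, 37.9% and 36.7% in exosomes and 27.3%, 27.2% and 28% in cells.

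**Figure D5:**
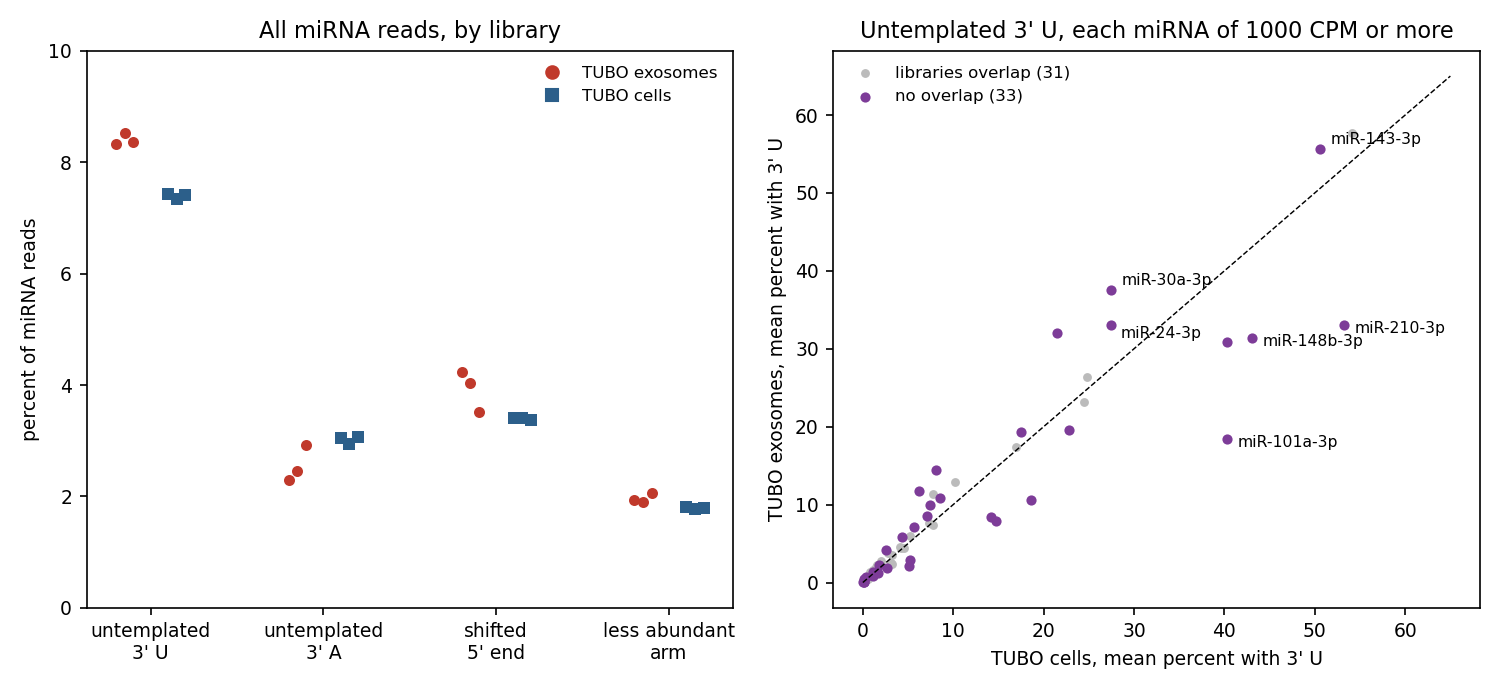
Left, percent of miRNA reads with untemplated 3′ U, untemplated 3′ A, a shifted 5′ end or from the less abundant arm, by library (circles exosomes, squares cells). The share with a shifted 5′ end is over reads with a reference 5′ end. Right, mean percent of reads with untemplated 3′ U for each of 64 miRNAs with 1000 CPM or more in both; miR-101a-3p and miR-210-3p lie far below the line of equal shares and miR-30a-3p above it.

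Sequence motifs described for miRNA sorting were counted in the RefSeq sequences of 211 tested miRNAs, on the miRNA strand, of which 37 were higher (17.5%) and 62 lower (29.4%). GGAG, described for export with hnRNPA2B1 in T cells, was in 17, of which 1 was higher and 3 lower, and in 14.2% of all 1679 RefSeq mature miRNAs. GGCU, described for export with SYNCRIP in hepatocytes, was in 26 (3 higher, 8 lower) and in 13.3% of all. CCCU was in 16 (4 higher, 8 lower) and 11.4% of all, CUCC in 22 (2 higher, 7 lower) and 12.8%, CAGU in 43 (8 higher, 14 lower) and 12.3%, and AUU in 58 (8 higher, 18 lower) and 17.9%. CGGGAG was in no tested miRNA and AGAAU in 3, with no calls. GGAG and CGGGAG overlap, and the matches are letters only. By GC content, the low, middle and high groups of similar size held 10 of 71, 17 of 74 and 10 of 66 higher, and 17, 26 and 19 lower. No test was run on these counts.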

How the data were processed

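Small RNA was sequenced from total RNA after adapter ligation and size selection, per the labels' protocols. The deposited files hold counts of each distinct insert sequence per library, and no adapter trimmer or filter of the authors is named in the labels. From these counts, inserts of 18 to 26 bases were assigned to mouse hairpins (GENCODE release M21 and RefSeq, GRCm38) when the first 18 bases matched exactly, with at most 2 differences after them, and summed per mature miRNA. CPM is over miRNA reads with no scaling.

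The test was edgeR 4.0.16 in R 4.3.3 (TMM, filterByExpr, robust quasi-likelihood fit) over 9 TUBO-derived libraries, exosomes minus cells, with Benjamini-Hochberg adjustment at 0.05. The fit was run on simulated counts with known changes and the same spread for all miRNAs and libraries. That simulation held no outlying library and used TMM alone. It therefore does not cover the effect of exosome replicate 3 or of the choice of scaling. DESeq2 1.42.0 and 14 other alternatives were tried. Named miRNAs were the 12 largest rises and falls at 100 CPM or more without overlap, the 10 most abundant, up to 4 members of each list, and the widest arm pairs and clusters. Members and lists were chosen with earlier results of these data known. No molecular identifiers were named, so intervals and floors cover counting error only.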

Additional observations from a re-analysis of the deposited data

How the results depend on the processing

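The number of miRNAs called was 120, and 77 to 102 when 1 library was left out. Rises numbered 46, 74 with the 6 exosome and cell libraries alone, and 43 to 58 with 1 library left out. Falls numbered 74, against 36 with upper-quartile scaling, 47 with the 6 libraries alone, 42 with no difference allowed after the first 18 bases, and 29 to 52 with 1 library left out. With DESeq2, 116 were called, and with no filter 123 of 744. The cause of these differences was not tested. miR-148a-3p was at 0.37 and miR-98-5p at 0.35 on the log2 scale with the 6 libraries alone, against −0.02 and −0.04. With the replicate number as a replicate block, 118 were called (46 higher, 72 lower). The deviations of same-numbered exosome and cell libraries had correlations of −0.157, −0.0743 and −0.0369, so the numbers gave no pairing. Over all alternatives, values of named miRNAs kept their direction and side of the threshold in 921 cases, passed it newly in 31, lost it in 63 and reversed in 2. Depth limits features with few reads, such as miR-150-5p.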
